A study of Homo sapiens with 8 samples.

Results

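Receptor tyrosine kinases are membrane proteins that bind a growth factor outside the cell and phosphorylate themselves and adaptor proteins inside it. The 10 genes described here are receptors whose levels are known to differ between melanoma cell states, and they were taken by symbol from a table of 18478 genes. All 10 were present, among 58 human receptor tyrosine kinases in the table. They are AXL, MERTK and TYRO3 (the TAM family), EGFR and ERBB3 (the ERBB family), KIT and PDGFRB (class III receptors), MET, FGFR1 and IGF1R.

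In melanocytes, KIT and its ligand act in survival and migration, and ERBB3 is a neuregulin receptor that signals through partner receptors because its own kinase is weak. Melanomas that keep the melanocyte program, which rests on the transcription factors SOX10 and MITF, are known to carry ERBB3, whereas dedifferentiated melanomas are known for AXL and EGFR. Both receptors have been linked to tolerance of BRAF and MEK inhibitors.

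RNA was sequenced from the human melanoma lines A2058 and C8161, grown in culture. Each line had received ATF3, a transcription factor of the ATF/CREB family that stress induces, by retroviral transduction, or was its neomycin control. A2058 had 1 library in each arm and C8161 had 3, 8 in all, and whether the 3 stem from separate cultures or transductions is not stated in the labels. Values are RPKM, reads scaled to transcript length and to the reads of the library, in 1 column per A2058 library and 1 column per C8161 arm that the authors combined. There is thus 1 value per arm, no spread between replicates and no test, and every difference below describes these 4 columns.

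ATF3 itself was at 4.71 RPKM with the introduced gene against 1.22 RPKM in A2058, and at 62.6 against 4.76 RPKM in C8161. The 4 columns summed to 470633 to 481302 RPKM, and 10866 to 11753 genes reached 1 RPKM. Steps among the low A2058 values placed the depth of both libraries at about 18600000 reads, an approximate figure. Their step coherence, ATF3 first, was 0.304 and 0.307 at the best depth against 0.199 and 0.217 at the next. The low values were picked with a preset depth near that figure. In the C8161 columns no depth stood out, with a step coherence of 0.335 and 0.333 at the best depth against 0.303 and 0.328 at the next, so their depth is unknown.

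The 2 lines stood apart in the genes that define melanoma states. In A2058 controls SOX10 was at 253.9 RPKM, MITF at 54.0 RPKM and the melanosome protein gene PMEL at 805.5 RPKM. In C8161 controls the same genes were at 0.06, 0.95 and 0.18 RPKM, and 12 of the 14 melanocyte genes listed lay under 1 RPKM, 4 of them at 0. The remaining genes of that list were MC1R at 1.77 RPKM and RAB27A at 5.72 RPKM, against 9.14 and 12.1 RPKM in A2058 controls. The longest transcript of MC1R shares 41.3% of its 50-base stretches with other genes, including TCF25. SOX10, MITF and 10 other melanocyte genes that mark the labelled cell type thus lay under 1 RPKM in C8161 controls. Of 15 genes of the dedifferentiated state, 14 reached 1 RPKM in C8161 controls and 13 in A2058 controls, with summed levels of 2077 and 235.5 RPKM. The exception in C8161 was NGFR, a neural crest receptor, at 0.06 RPKM against 2.93 RPKM in A2058. Fibroblast, endothelial, leukocyte and keratinocyte marker lists had 1, 1, 1 and 2 genes at 1 RPKM or more in C8161 controls. Their summed levels were 3.15, 9.78, 30.4 and 163 RPKM in C8161 controls, and 19.99, 2.64, 39.3 and 31.6 RPKM in A2058 controls. In C8161 controls the keratinocyte sum was carried by SFN, at 146 RPKM, with KRT10 at 16.2, KRT14 at 0 and KRT5 at 0.01 RPKM. In A2058 controls that sum was carried by KRT10, at 30.4 RPKM. The leukocyte sum in C8161 controls was carried by CD68, whose longest transcript shares 92.6% of its 50-base stretches with other genes. The part of other cell types in the receptor levels was not tested. In bulk RNA, a lower level in each cell and fewer cells with the RNA cannot be told apart.

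Promoter windows of the RefSeq table, build GRCh38.p14, were available for 8 of the 10 members. Each runs from 250 bases before a gene start to 50 after it. They are shown for the receptors with the largest differences between lines in C8161's favour, AXL and EGFR, and for TYRO3, the member that differed most with ATF3. Capitals mark matches on either strand to the AP-1 motif TGANTCA, the cyclic AMP response element TGACGTCA, the C/EBP-ATF composite motif TGATGCAA, the E-boxes CACGTG and CATGTG, or the TEAD motif GGAATG. N stands for any base, so TGANTCA is wider than the AP-1 consensus, which has G or C at that place. The table holds 2 windows each for AXL, TYRO3 and EGFR. The first AXL window lies at chr19:41218973-41219272, the first of TYRO3 at chr15:41558962-41559261, and those of EGFR at chr7:55018767-55019066 and chr7:55109589-55109888, all on the plus strand.
AXL, first start: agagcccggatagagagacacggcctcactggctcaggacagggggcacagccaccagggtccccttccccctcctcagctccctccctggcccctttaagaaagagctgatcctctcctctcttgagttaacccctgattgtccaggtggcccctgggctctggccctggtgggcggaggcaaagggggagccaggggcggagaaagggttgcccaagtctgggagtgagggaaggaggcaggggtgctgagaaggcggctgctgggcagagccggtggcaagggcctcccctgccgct
TYRO3, first start: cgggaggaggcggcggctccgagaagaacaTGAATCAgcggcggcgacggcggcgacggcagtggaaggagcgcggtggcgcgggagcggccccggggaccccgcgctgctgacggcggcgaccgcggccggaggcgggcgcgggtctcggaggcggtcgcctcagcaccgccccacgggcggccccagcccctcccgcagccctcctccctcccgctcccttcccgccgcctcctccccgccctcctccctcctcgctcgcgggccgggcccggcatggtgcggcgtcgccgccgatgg
EGFR, first start: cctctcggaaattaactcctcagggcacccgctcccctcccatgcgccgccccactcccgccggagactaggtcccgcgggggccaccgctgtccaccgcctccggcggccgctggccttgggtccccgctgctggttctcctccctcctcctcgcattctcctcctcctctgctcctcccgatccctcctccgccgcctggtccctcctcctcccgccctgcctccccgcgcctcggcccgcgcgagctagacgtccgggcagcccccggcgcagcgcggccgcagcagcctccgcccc
EGFR, second start: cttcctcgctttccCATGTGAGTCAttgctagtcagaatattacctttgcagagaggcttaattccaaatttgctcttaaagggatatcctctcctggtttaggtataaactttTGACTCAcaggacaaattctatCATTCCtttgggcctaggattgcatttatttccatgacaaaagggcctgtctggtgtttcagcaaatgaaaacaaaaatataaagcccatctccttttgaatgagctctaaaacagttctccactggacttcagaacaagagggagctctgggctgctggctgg

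The first start windows of AXL and EGFR held none of the 6 motifs. The second AXL window, at chr19:41226505-41226804 and not printed, held a CATGTG match at −79 and a TEAD match at −212. The first TYRO3 window held 1 match to TGANTCA, whose first base lies at −220 from the start. This match reads TGAATCA, with A in the middle, and so is not the AP-1 consensus. The second TYRO3 window, at chr15:41559722-41560021, held none of the 6 motifs. The window at the second EGFR start held AP-1 matches at −232 and −136, the first of which overlaps a CATGTG match at −236, and a TEAD match at −114. Among 35116 promoter windows of the same length, 7.71% held TGANTCA with any middle base, 1.85% the cyclic AMP response element, 0.866% the composite motif, 7.26% CACGTG, 11.1% CATGTG and 14.03% the TEAD motif. Neither the cyclic AMP response element nor the composite motif, both known as sites of ATF proteins, occurred in any window of the 8 members. The window of MET held a CACGTG match whose first base is at position 4, the start base being position 1. RPKM per gene do not say from which start the RNA came.

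The order of the receptors differed between the lines. In both A2058 columns the order from high to low was ERBB3, TYRO3, IGF1R, MET, MERTK, AXL, FGFR1, KIT, PDGFRB and EGFR. In both C8161 columns it was AXL, EGFR, MET, FGFR1, TYRO3, IGF1R, ERBB3, MERTK, KIT and PDGFRB. EGFR was thus last in A2058 and the second highest in C8161, and ERBB3 was first in A2058 and at place 7 in C8161. RPKM are scaled to transcript length, so levels may be compared between genes, but without replicates the order of close neighbours such as MERTK and AXL in A2058 (11.99 and 11.41 RPKM in controls) is not resolved. Of the 10 members, 8 reached 1 RPKM in each A2058 column and 6 in each C8161 column.

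**Figure D1:**
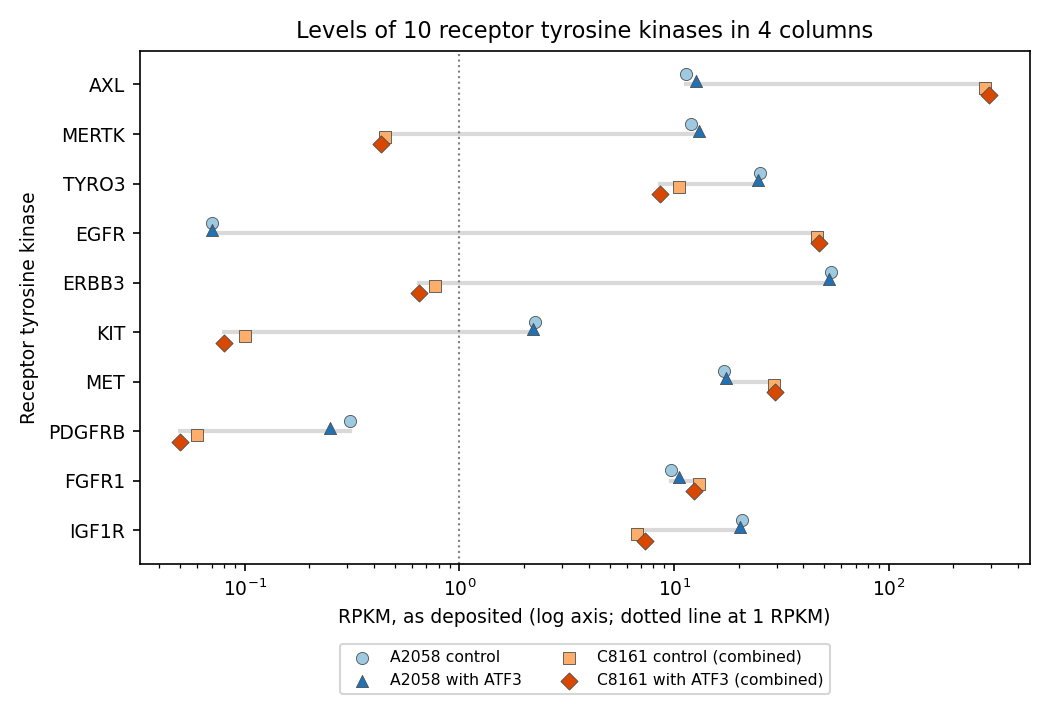
RPKM on a log axis for the 10 receptors, with 1 symbol per column (A2058 control and with ATF3, C8161 control and with ATF3, the latter pair combined by the authors); grey lines join the lowest and highest value, and symbols are shifted vertically for legibility. AXL lies at 279.7 and 293.6 RPKM in C8161 and at 11.4 and 12.6 RPKM in A2058, and the 2 arms of a line lie within 1.25-fold of each other for every receptor.

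The first comparison set the C8161 control against the A2058 control. The log2 difference was taken on log2(RPKM + 1), C8161 minus A2058, over 12372 genes with at least 1 RPKM in either column. Of these genes 30.0% differed by 2-fold or more on that scale, 9.36% higher and 20.7% lower in C8161. Of the 9 members compared, 2 were higher and 5 lower by 2-fold or more. The median over the 9 members was −1.17, and over all genes −0.19. Quantile normalization moved the median of all genes to 0.08, so small differences depend on the scaling. The single A2058 library and the combined C8161 column also differ in how they were made, and line and column type cannot be told apart.

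Among the TAM receptors, AXL, bound by GAS6 (chromosome 19, 41219223 to 41261766, GRCh38), was at 279.65 RPKM in the C8161 control and 293.63 RPKM with ATF3. In A2058 it was at 11.41 RPKM in the control and 12.63 RPKM with ATF3. Both C8161 values lay above both A2058 values, and the control levels differed 24.5-fold, with a log2 difference of 4.50. AXL had the highest level of all 58 receptor tyrosine kinases in C8161 and was at place 14 in A2058. It made up 40.4% of the summed RPKM of these receptors in the C8161 control and 2.90% in the A2058 control.

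MERTK (chromosome 2, 111898607 to 112029561), a receptor of GAS6 and protein S known for the uptake of dying cells by macrophages, had the opposite pattern. It was at 11.99 RPKM in the A2058 control and 13.10 RPKM with ATF3, and at 0.45 and 0.43 RPKM in the same arms of C8161. Both A2058 values were high and both C8161 values under 1 RPKM, and the control levels differed 26.6-fold. TYRO3 (chromosome 15, 41559212 to 41583589), which binds the same ligands, was at 25.05 and 24.62 RPKM in A2058, control first, and at 10.58 and 8.57 RPKM in C8161. The control levels differed 2.37-fold, and its log2 difference of −1.17 was −0.99, just inside 2-fold, after quantile normalization. Within the TAM family AXL accordingly held 96.2% of the summed RPKM in the C8161 control. In the A2058 control the shares were 51.7% TYRO3, 24.7% MERTK and 23.6% AXL.

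EGFR (chromosome 7, 55019017 to 55211628), the receptor of EGF and related factors, was at 46.17 RPKM in the C8161 control and 47.12 RPKM with ATF3. In both A2058 columns it was listed at 0.07 RPKM, which on its longest transcript corresponds to about 12.8 reads. The log2 difference was 5.46, the highest of the 9 members. The fold of the control levels, 659.6, rests on those few reads and on a value given to 2 decimals. ERBB3 (chromosome 12, 56080108 to 56103505) was at 53.97 RPKM in the A2058 control and 52.68 RPKM with ATF3, against 0.77 and 0.65 RPKM in C8161. The control levels differed 70.1-fold, with a log2 difference of −4.96, the lowest of the 9. Of the summed RPKM of the 4 ERBB receptors, ERBB3 held 73.3% and EGFR 0.0950% in the A2058 control. In the C8161 control EGFR held 81.7% and ERBB3 1.36%. ERBB2, the partner of both, took 26.6% in A2058 and 16.9% in C8161.

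KIT (chromosome 4, 54657957 to 54740715), the receptor of stem cell factor, was low in A2058, at 2.24 RPKM in the control and 2.20 RPKM with ATF3. In C8161 it was at 0.10 and 0.08 RPKM. The log2 difference was −1.56 and the fold of the control levels 22.4, the former being damped by the added 1. PDGFRB (chromosome 5, 150113839 to 150155845), known from pericytes and fibroblasts, stayed under 1 RPKM in all 4 columns, at 0.31 and 0.25 RPKM in A2058 and 0.06 and 0.05 RPKM in C8161, control first. It was therefore not compared. Its relative PDGFRA was at 0.30 RPKM in the A2058 control and 0.06 RPKM in the C8161 control.

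MET (chromosome 7, 116672196 to 116798377), the receptor of hepatocyte growth factor, was present in both lines. It was at 29.24 and 29.53 RPKM in C8161 and 17.12 and 17.44 RPKM in A2058, control first, a fold of 1.71 between controls. FGFR1 (chromosome 8, 38411143 to 38468635), a receptor of fibroblast growth factors, was at 13.01 and 12.31 RPKM in C8161 and 9.68 and 10.49 RPKM in A2058. Both were below 2-fold between lines, with log2 differences of 0.74 and 0.39. IGF1R (chromosome 15, 98648539 to 98964530), which binds insulin-like growth factors, was higher in A2058, at 20.64 and 20.26 RPKM against 6.74 and 7.32 RPKM in C8161, control first. Its control levels differed 3.06-fold, with a log2 difference of −1.48.

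Set beside the spread of genes of like level, 3 members stood outside. The central 95% of the log2 differences of the 500 genes nearest in mean level, called the level band here, describes the spread across genes and is not a test. AXL (4.50, band −1.66 to 1.31) and EGFR (5.46, band −4.89 to 3.49) lay above it, and ERBB3 (−4.96, band −3.76 to 2.37) lay below it. MERTK (−3.16, band −4.19 to 3.51), TYRO3, KIT, MET, FGFR1 and IGF1R lay inside.

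**Figure D2:**
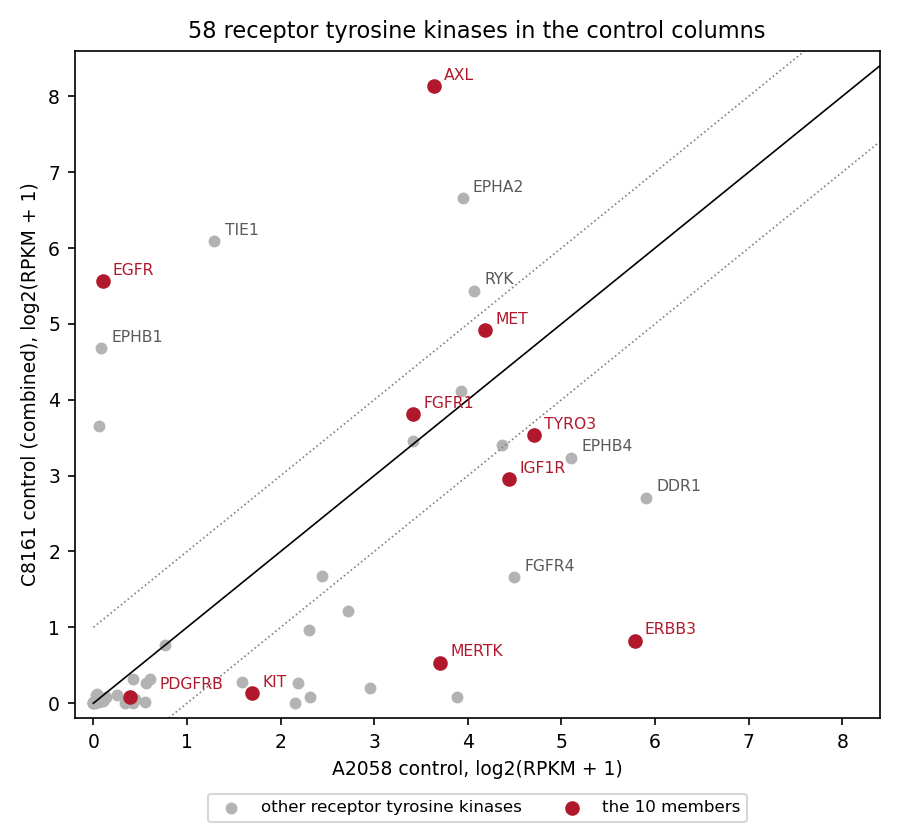
Each point is 1 of 58 receptor tyrosine kinases, with log2(RPKM + 1) in the A2058 control on the x axis and in the combined C8161 control on the y axis; the 10 members are red, the solid line marks equal levels and the dotted lines 2-fold. AXL and EGFR lie far above the line and ERBB3 and MERTK far below it, while MET and FGFR1 lie between the dotted lines.

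Among all 58 receptor tyrosine kinases, 29 could be compared between lines, of which 7 were higher and 16 lower in C8161 by 2-fold or more, with a median of −1.31. Of all genes compared, 9.36% were higher and 20.7% lower by that size. Outside the 10, 7 receptors reached 20 RPKM in at least 1 column. TIE1, an endothelial receptor, was at 67.2 RPKM in the C8161 control against 1.45 RPKM in A2058, EPHA2 at 100.2 against 14.4 RPKM and EPHB1 at 24.7 against 0.06 RPKM. RYK, a WNT co-receptor, was at 42.4 against 15.7 RPKM. On the other side, the collagen receptor DDR1 was at 5.55 RPKM in C8161 against 58.9 RPKM in A2058, EPHB4 at 8.44 against 33.4 RPKM and FGFR4 at 2.16 against 21.5 RPKM. In the A2058 control DDR1 was thus the single receptor above ERBB3, which ranked 2 of 58. The 10 members together held 55.9% of the summed receptor RPKM in the C8161 control and 38.8% in the A2058 control.

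Ligand levels showed where a line made RNA for both partners. GAS6, the ligand of all TAM receptors, was at 35.1 RPKM in the C8161 control and 28.2 RPKM with ATF3, against 2 and 2.57 RPKM in A2058. PROS1, protein S, ran the other way, at 13.4 and 13.9 RPKM in A2058 and 5.13 and 6.37 RPKM in C8161, control first. Of its longest transcript 10.1% of the 50-base stretches also occur in other genes, including the pseudogene PROS2P. The line with most AXL RNA thus also had more GAS6 RNA, and the line with MERTK and more TYRO3 RNA had more PROS1 RNA, although the PROS1 log2 difference of −1.23 was −0.94 after quantile normalization.

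For the ERBB receptors, HBEGF was at 17.7 RPKM in the C8161 control and 4.52 RPKM in the A2058 control. TGFA was at 1.74 against 7.81 RPKM and EGF at 0.29 against 3.01 RPKM, in that order. AREG was at 1.09 RPKM in the C8161 control and 0.52 RPKM in the A2058 control, and EREG, BTC and EPGN stayed under 1 RPKM in all columns. A2058 thus had TGFA and EGF RNA with almost no EGFR RNA. NRG1, a neuregulin, differed little, at 3.38 RPKM in the C8161 control and 2.83 RPKM in the A2058 control, and NRG2 was at 0.86 and 1.01 RPKM.

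For the other receptors, KITLG was at 6.77 RPKM in the C8161 control, where KIT was at 0.10 RPKM, and at 1.69 RPKM in the A2058 control. HGF was listed at 0 in both C8161 columns and at 0.03 and 0.10 RPKM in A2058, control first, although MET was above 17 RPKM throughout. IGF1 and IGF2 were at 0.21 RPKM or less in every column. The fibroblast growth factors FGF5 (12.6 against 0.29 RPKM), FGF2 (10.2 against 1.15 RPKM) and FGF1 (7.39 against 0.09 RPKM) were higher in the C8161 control than in the A2058 control. FGF7 and FGF18 were at 0.26 and 0.17 RPKM in the C8161 control and at 0.72 and 0.22 RPKM in the A2058 control. PDGFB was at 0.50 and 0.35 RPKM and PDGFD at 1.01 and 2.12 RPKM, C8161 control first. Of the 13 ligands compared between controls, 6 were higher and 3 lower in C8161 by 2-fold or more, beside 9.36% higher and 20.7% lower of all genes.

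**Figure D3:**
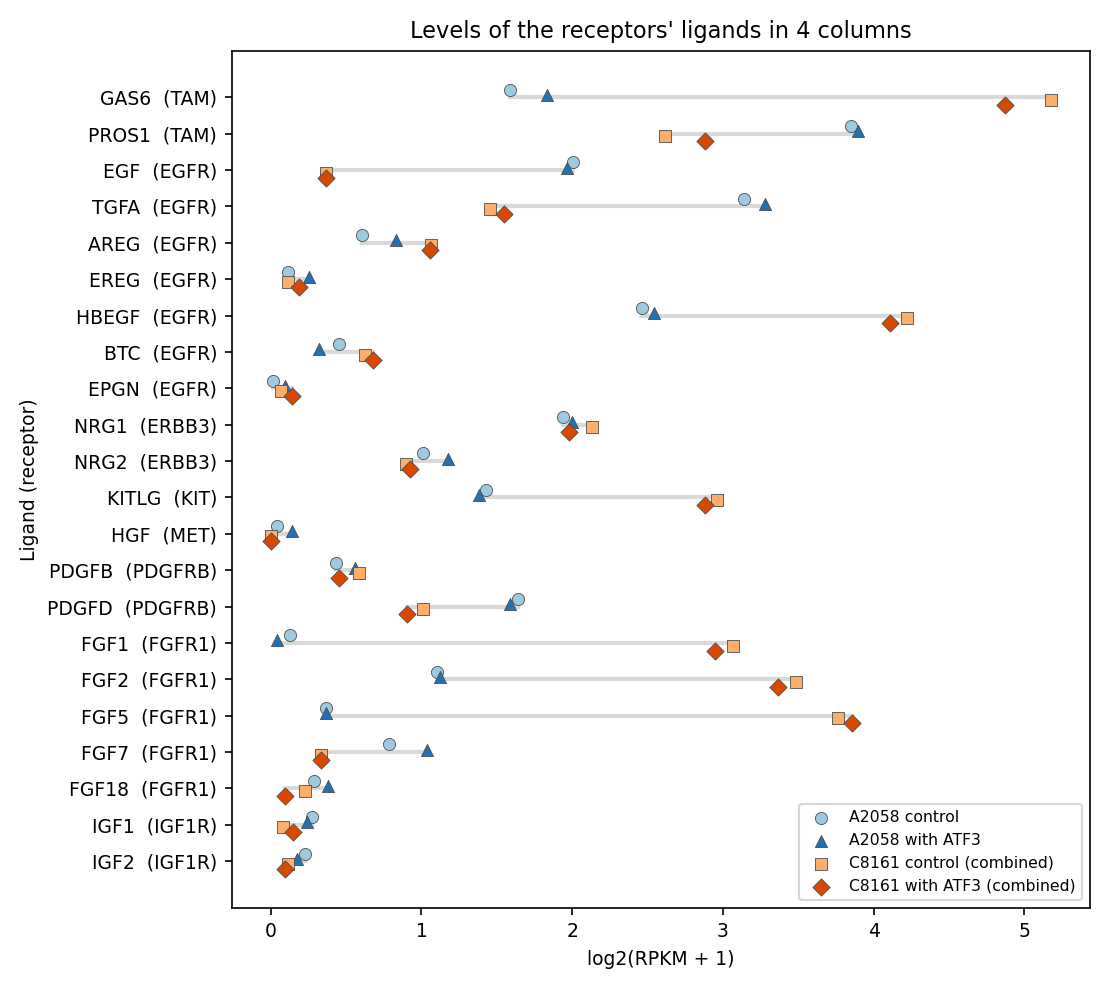
Levels as log2(RPKM + 1) of 22 ligands in the 4 columns, each with its receptor in brackets (TAM stands for AXL, MERTK and TYRO3); grey lines join the lowest and highest value. GAS6, HBEGF, KITLG, FGF1, FGF2 and FGF5 lie further right in C8161, PROS1, TGFA and EGF in A2058, and HGF, IGF1 and IGF2 lie near 0 in all columns.

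Genes that act beside the receptors were counted in the same way, against 30.0% of all genes past 2-fold between controls. All 7 IGF binding proteins, which hold or release IGF1R ligands, were past 2-fold, 4 higher and 3 lower in C8161. IGFBP5 was at 0.24 RPKM in the C8161 control against 192.8 RPKM in A2058, IGFBP7 at 7.70 against 352.5 RPKM and IGFBP2 at 10.9 against 179.6 RPKM. IGFBP1 was at 17.6 RPKM in the C8161 control and listed at 0 in A2058. Of 25 adaptors and proximal effectors, 4 were higher and 6 lower in C8161, with a median of −0.33. The insulin receptor substrates differed in opposite directions: IRS2 was at 2.15 RPKM in C8161 against 46.0 RPKM in A2058, and IRS1 at 5.68 against 0.96 RPKM. The docking protein gene GAB2 was at 5.74 against 19.3 RPKM and STAT3 at 21.9 against 54.1 RPKM.

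Of 20 sheddases, ubiquitin ligases and inhibitors compared, 4 were higher in C8161 and 0 lower by 2-fold, with a median of 0.08, so the share past 2-fold was below that of all genes. They were the ubiquitin ligase NEDD4 (17.0 against 4.08 RPKM), the EGFR inhibitor ERRFI1 (48.9 against 21.8 RPKM), and the phosphatases PTPRK (9.86 against 4.17 RPKM) and PTPN2 (18.3 against 8.6 RPKM). Of 9 heparan sulfate and other co-receptors compared, 3 were higher and 2 lower. The syndecans SDC2 (1.73 against 26.2 RPKM) and SDC3 (14.7 against 67.7 RPKM) were lower in C8161, and SDC4 (80.3 against 28.2 RPKM) and the neuropilin NRP1 (39.7 against 8 RPKM) were higher.

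The second comparison asked how the receptors differed with introduced ATF3 in C8161. Of 10941 genes compared, 4.91% differed by 1.2-fold or more on the log2(RPKM + 1) scale, a log2 ratio of 0.263, with 2.19% higher and 2.71% lower. Of the 6 members compared, TYRO3 was past that size and the other 5 were not. TYRO3 was at 8.57 RPKM with ATF3 against 10.58 RPKM, a fold of 1.23 lower and a log2 ratio of −0.28. Its ratio lay inside the level band, which ran from −0.29 to 0.27. When the trends with GC content and transcript length were removed, it was −0.261, just under the 1.2-fold size.

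The other 5 members lay closer to 0. AXL was at 293.63 against 279.65 RPKM (log2 ratio 0.07), IGF1R at 7.32 against 6.74 RPKM (0.10) and EGFR at 47.12 against 46.17 RPKM (0.03). MET was at 29.53 against 29.24 RPKM (0.01, and −0.03 without the GC and length trends), and FGFR1 at 12.31 against 13.01 RPKM (−0.07). All 5 lay inside their level bands. MERTK, ERBB3, KIT and PDGFRB were under 1 RPKM in both columns and were not compared. The median of the 6 members was 0.02 and that of all genes 0.01. Among the markers of other cell types, the endothelial sum was 19.3 RPKM with ATF3 against 9.78 RPKM, carried by CDH5 at 18.1 against 8.86 RPKM, while the other 7 endothelial markers were at 0.34 RPKM or less in both columns. The leukocyte sum was 38.6 against 30.4 RPKM, carried by CD68 at 37.58 against 29.03 RPKM. The fibroblast sums were 3.41 and 3.15 RPKM and the keratinocyte sums 167 and 163 RPKM, and the part of these markers in the receptor ratios was not tested.

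In A2058, 3.53% of 11883 genes differed by 1.2-fold or more, 2.02% higher and 1.51% lower, and 0 of the 8 members compared did. AXL was at 12.63 RPKM with ATF3 against 11.41 RPKM, the highest log2 ratio of the members at 0.14. MERTK was at 13.10 against 11.99 RPKM (0.12) and FGFR1 at 10.49 against 9.68 RPKM (0.11). MET (0.03), KIT (−0.02), TYRO3 (−0.02), IGF1R (−0.03) and ERBB3 (−0.03) lay closer to 0, and all 8 lay inside their level bands. EGFR and PDGFRB were under 1 RPKM and were not compared. The endothelial, leukocyte, fibroblast and keratinocyte sums were 3.76, 41.2, 22.1 and 33.2 RPKM with ATF3, beside the control values given above. Of these markers, ESAM (2.73 RPKM with ATF3 against 1.70 RPKM), LYZ (2.07 against 1.28 RPKM) and SFN (1.48 against 0.71 RPKM) lay above their level bands. FCER1G (0.39 against 1.17 RPKM) lay below its band. The part of these markers in the receptor ratios was not tested.

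Counting error in A2058 can be approximated from the depth of about 18600000 reads and the longest transcripts. For AXL, about 1110 and 1004 reads give a log2 fold of RPKM of 0.15 with an approximate 95% interval of 0.02 to 0.27. The intervals were −0.004 to 0.26 for MERTK, −0.001 to 0.23 for FGFR1, −0.09 to 0.04 for TYRO3 and −0.09 to 0.02 for ERBB3. That of KIT, with about 212 and 216 reads, ran from −0.30 to 0.25. These intervals cover counting error only and leave out the spread between cultures, which 1 library per arm cannot give.

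**Figure D4:**
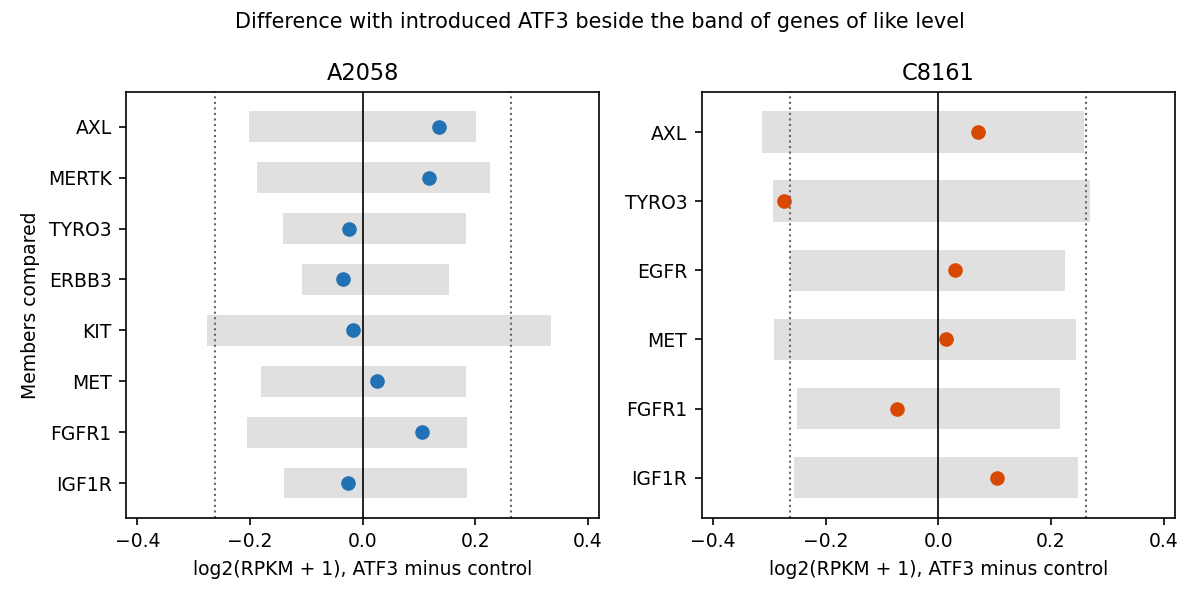
Difference of log2(RPKM + 1), ATF3 minus control, for the members compared in A2058 (left) and C8161 (right); points are single values, grey bars the level band of each gene and dotted lines 1.2-fold. Every point lies inside its bar, and TYRO3 in C8161, at −0.28, is the single point past a dotted line.

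Among the ligands, both of the TAM receptors were past 1.2-fold in C8161, in opposite directions. GAS6 was at 28.2 RPKM with ATF3 against 35.1 RPKM (log2 ratio −0.31, below its level band) and PROS1 at 6.37 against 5.13 RPKM (0.27, inside its band). Without the GC and length trends the ratios were −0.19 and 0.22, both under 1.2-fold. In A2058 GAS6 was at 2.57 against 2 RPKM (0.25, inside its band, and 0.35 with a pseudocount of 0.1 RPKM) and PROS1 at 13.9 against 13.4 RPKM. They were the only ligands past 1.2-fold among 11 compared in C8161, and 0 of 11 were past it in A2058. The shares of all genes past it were 4.91% in C8161 and 3.53% in A2058. FGF7 in A2058, at 1.05 RPKM with ATF3 against 0.72 RPKM, had a log2 ratio of 0.25, which was 0.49 with a pseudocount of 0.1 RPKM and 0.30 without the GC and length trends. The ratio of NRG2 there, at 1.26 against 1.01 RPKM, was 0.17, and 0.29 with the smaller pseudocount. Whether the GAS6 difference varied between lines was not tested.

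Among all receptor tyrosine kinases, 2 of 19 compared were past 1.2-fold in C8161, TYRO3 and, in the other direction, the collagen receptor DDR2 (12.44 RPKM with ATF3 against 10 RPKM, named after its value was seen; log2 ratio 0.29, and 0.24 without the GC and length trends). None of the 26 compared in A2058 were, and of all genes 4.91% were past it in C8161 and 3.53% in A2058. The medians were −0.06 in C8161 and −0.03 in A2058. Of the other pathway lists in C8161, IGFBP1 was at 22.4 RPKM with ATF3 against 17.6 RPKM, the signalling inhibitor SOCS2 at 8.69 against 6.01 RPKM, the RAS activator SOS1 at 5.70 against 4.54 RPKM and the glypican GPC1 at 6.44 against 8.15 RPKM. Each was the single gene past 1.2-fold among those compared in its list and lay outside its level band. IGFBP5 was not compared because both values lay under 1 RPKM, at 0.99 RPKM with ATF3 against 0.24 RPKM. Without the GC and length trends GPC1 (−0.15) and SOS1 (0.21) were under 1.2-fold. In A2058 IGFBP3, at 76.95 RPKM with ATF3 and 60.8 RPKM without, lay above its band. The adaptors SHC2 (2.18 against 1.59 RPKM) and FRS3 (2.04 against 1.44 RPKM), named after their values were seen, were past 1.2-fold inside their bands. PIK3CB, a kinase subunit, was at 12.26 against 14.04 RPKM, PTPN2 at 10.05 against 8.6 RPKM and NRP2 at 61.4 against 67.3 RPKM in A2058, all outside their bands but under 1.2-fold.

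The genes most like each receptor were found by the Euclidean distance between centred log2(RPKM + 1) values over the 4 columns, among 12428 genes with at least 1 RPKM in a column. With 4 columns that share 2 lines, short distances mainly record a like difference between lines on the log2(RPKM + 1) scale. Folds of RPKM can still differ: KIT was at 2.24 and 0.10 RPKM in the A2058 and C8161 controls, and its neighbour FBXO41 at 9.39 and 2.51 RPKM. The nearest to AXL were FAM167A (distance 0.08; 22.1 RPKM in the C8161 control and 0.07 RPKM in the A2058 control) and S100A2 (0.09; 211.8 and 7.94 RPKM). The nearest to EGFR were BCAT1 (0.09) and CDCP1 (0.11), and to ERBB3 EMILIN1 (0.06) and PASD1 (0.08). Those nearest to MERTK were BEGAIN (0.02) and SPIRE2 (0.04), to TYRO3 TIGD5 (0.02) and CPTP (0.04), and to KIT ZNF862 (0.02) and FBXO41 (0.02). For MET they were YBX3 (0.01) and EIF2S2 (0.01), for FGFR1 NDUFAF4 (0.02) and ESD (0.03), and for IGF1R HIF1A (0.02) and PRRT1 (0.02).

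Shared sequence was low in the members. The longest transcript of TYRO3 had 4.85% of its 50-base stretches in other genes, that of AXL 0.768%, and the others 0.195% or less. Exons on the opposite strand covered 67 of 5154 exon bases of AXL, 186 of 12521 of EGFR (EGFR-AS1) and 294 of 13842 of FGFR1. The strand setting of the counting is not given in the sources used here, so reads there cannot be assigned to one strand.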

How the data were processed

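The authors deposited 1 table of RPKM, per the file headers, with 2 decimals, for 18478 Entrez gene identifiers. The tools Bowtie2 and RSEM and the genome hg38 appear, without versions, per the submitters' processing notes. The sources used here give neither the annotation and filters nor whether the combined C8161 columns are means or pooled reads. Tests planned for values per library could not be run.

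Symbols and coordinates came from RefSeq genes of GRCh38.p14 (18156 identifiers matched, 322 did not), and lengths and GC content from GENCODE 29. Ratios used log2(RPKM + 1), which understates differences of low genes, over genes with at least 1 RPKM in 1 of 2 columns. Python 3.11.15, numpy 2.4.6, pandas 2.3.3 and statsmodels 0.14.6 (lowess trends) were used. The level band and the 1.2-fold size were tried on simulated ATF3 comparisons, with counting noise only and with introduced changes larger than that size. The 2-fold size and the band between controls were not simulated.

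The members, lists and sizes (1.2-fold, 2-fold) were chosen with earlier results of these data known. Named genes were the members, all ligands, other receptor tyrosine kinases at 20 RPKM or more, and, per pathway list at a mean of at least 2 RPKM, the 4 largest line differences and 2 largest ATF3 ratios. State and cell type markers were named after their values were seen. Alternatives covered the pseudocount, the minimum level, column scaling and GC and length trends.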

Additional observations from a re-analysis of the deposited data

Results flagged for a closer look

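FGFR1 and IGF1R had ATF3 ratios of opposite sign in the lines. The log2 ratio of FGFR1 was 0.11 in A2058 and −0.07 in C8161, a difference (C8161 minus A2058) of −0.179. That of IGF1R was −0.03 in A2058 and 0.10 in C8161, a difference of 0.130, and its A2058 ratio was 0.02 without the GC and length trends. All 4 ratios lay inside their level bands. The differences were not tested, and the combined C8161 column does not show the direction in each of its 3 libraries.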

How the results depend on the processing

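No paired analysis was possible because the C8161 columns give 1 combined value per arm, so neither a replicate block nor fits without each replicate could be run. The count of members past 1.2-fold with ATF3 in C8161 was 1 (TYRO3), and 0 without the GC and length trends. In A2058 it was 0 in all 7 settings. The count past 2-fold between controls was 7, and 6 with a minimum of 5 RPKM (KIT not compared) or after quantile normalization (TYRO3 inside 2-fold). Of 127 single member values under an alternative, 126 moved by less than the half-width of their level band, and KIT between controls went from −1.56 to −3.55 with a pseudocount of 0.1 RPKM. Bands between controls are wide (EGFR −4.89 to 3.49), so staying within the half-width says little about those differences. Across the settings EGFR between controls ran from 5.46 to 8.09, MERTK from −4.46 to −2.81 and ERBB3 from −5.96 to −4.64. Ratios that changed sign in a setting were TYRO3 (−0.02 to 0.00) and IGF1R (−0.03 to 0.02) in A2058 and MET (0.01 to −0.03) in C8161. Of 680 values of other named genes, 679 stayed within that half-width, the exception being SHC2 between controls (−3.94 with a pseudocount of 0.1 RPKM). Quantile normalization placed 7 members at 1 RPKM or more in the C8161 control instead of 6.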
